A study of Canis lupus familiaris with 8 samples.

Results

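The transcripts described here encode the proteases that release growth factors from the cell surface, the cofactors of those proteases and their inhibitors. They are 4 ADAM sheddases (ADAM9, ADAM10, ADAM15 and ADAM17), 2 iRhoms (RHBDF1 and RHBDF2) and 3 TIMPs (TIMP1, TIMP2 and TIMP3). The 9 genes were chosen by symbol and for their role out of 37952 genes in the deposited count table. Earlier results of these data were known when they were chosen. All 9 were present and all 9 passed the filter on low counts. PolyA-selected, stranded RNA libraries were made from MDCK GII cells, an epithelial line derived from dog kidney, grown as a monolayer on a collagen-coated elastic silicone membrane. The stretch group consisted of 4 wells in which the membrane was strained equally along both in-plane axes by 18% and kept strained for 2 hours. The control group consisted of 4 wells whose labelled treatment is control, with nothing further stated. Both groups were the same unmodified line, and the labels describe the wells as technical quadruplicates distributed at random between stretch devices, so the spread and the p-values refer to wells of 1 line and not to independent cultures or animals.

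ADAM proteases are single-pass membrane proteins with a zinc-dependent catalytic domain outside the cell. They cut other membrane proteins close to the membrane and set the outer part free, a step called ectodomain shedding. Ligands of the EGF receptor are made as membrane-bound precursors, and shedding turns them into soluble ligands that can reach receptors on the same or on neighbouring cells. ADAM17 is the main sheddase of several of these precursors, including HB-EGF, and ADAM10 cuts the precursors of EGF and betacellulin as well as E-cadherin. The iRhoms are relatives of rhomboid proteases that have lost catalytic activity, and they carry ADAM17 out of the endoplasmic reticulum and stay with it at the surface. TIMPs are small secreted inhibitors of metalloproteinases, of which TIMP3 binds the extracellular matrix and is the family's principal inhibitor of ADAM17. ADAM activity is controlled to a large extent after transcription, by prodomain removal, trafficking and phosphorylation, and none of those steps is measured by RNA counts. The series title places the experiment in a study of ADAM-dependent ligand release under force on E-cadherin, so the comparison asks whether the transcripts of the release machinery differed between strained and control wells.

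The libraries held 27047358 to 32478887 counts. Of 14571 tested genes, edgeR's quasi-likelihood test called 0 (0%) at an adjusted p under 0.05. Before adjustment, 579 (3.97%) had a p under 0.05, and the Wald test of DESeq2 called 40 after it. With the replicate number entered as a block, so that each stretch well is compared with the control well of the same number, edgeR called 102 genes (0.7%), of which 77 were higher after stretch (0.528% of those tested). The labels do not state that wells of the same number belong together. Of 8 epithelial markers, 7 had at least 1 CPM (the read count scaled to a common library size) in every well. Of 8 fibroblast markers, COL1A2, COL3A1, DCN and LUM had 0 counts in all 8 wells, COL1A1, PDGFRB and THY1 had at most 8 counts in a well, and PDGFRA had 53 to 113 (1.65 to 4.11 CPM). The summed level of the 8 was 1.83 to 4.22 CPM in control and 3.16 to 3.88 CPM in stretch wells. Of 4 leukocyte markers, PTPRC and CD3E had 0 counts in all wells, CSF1R had at most 2 and CD68 had 12 to 32, with a summed level of 0.529 to 0.734 CPM in control and 0.446 to 1.05 CPM in stretch wells. The 4 endothelial markers (PECAM1, CDH5, VWF and KDR) summed to 1.54 to 2.27 CPM in control and 1.26 to 2.30 CPM in stretch wells, mostly from KDR (21 to 51 counts) and VWF (11 to 22 counts).

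None of the 4 sheddase transcripts passed a test, with 95% intervals of the change that all lay between 0.916-fold and 1.09-fold. TIMP3 was the 1 member of 9 that was called, and only when same-numbered wells were treated as pairs. TIMP3 was higher in the stretch well of all 4 same-numbered pairs and rose 1.42-fold with the replicate block (95% interval 1.28 to 1.58; edgeR, adjusted p = 0.00217), but it did not pass without the block (edgeR, adjusted p = 0.999). Nor did it pass with a coarser block of replicates 1 and 2 against 3 and 4 (edgeR, adjusted p = 0.504). In bulk RNA, more cells with the transcript and more of it per cell cannot be told apart. The other 8 members passed in none of these fits. Without the block, 0 of the 9 members passed in edgeR, 0 had an unadjusted p under 0.05, and DESeq2 and limma-voom also called 0 of them. All CPM values below are TMM-normalised, which corrects for library size and composition.

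ADAM17, on chromosome 17 (6597002 to 6645753, minus strand), encodes the protease also known as TACE, which releases TNF and many EGF receptor ligands. Its level in control replicates 1 to 4 was 112, 105, 117 and 111 CPM, and in stretch replicates 1 to 4 it was 114, 113, 111 and 109.8 CPM. The stretch wells lay inside the range of the control wells and were closer together. The group means were 111 ± 4.81 and 112 ± 1.76 CPM (SD, n = 4 each), and the log2 change was 0.0048 ± 0.047 (SE). The 95% interval of the change ran from 0.934-fold to 1.08-fold. This interval refers to wells of 1 line and takes in no variation between independent cultures.

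ADAM10, on chromosome 30 (23923628 to 24051939, minus strand), encodes the sheddase of E-cadherin and Notch receptors. It had 307, 309.7, 313 and 308 CPM in control wells and 287, 303, 317 and 330.3 CPM in stretch wells. The control wells were nearly identical, with a coefficient of variation of 0.894%, close to the 1.04% that counting alone gives at this depth. The stretch wells were spread to both sides of them, with a coefficient of variation of 5.99%. Stretch was lower in replicates 1 and 2 and higher in replicates 3 and 4, so the groups overlapped. The log2 change was -8.5e-04 ± 0.046 (SE), with a 95% interval from 0.932-fold to 1.07-fold.

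ADAM9, on chromosome 16 (27154835 to 27291400, minus strand), encodes a widely expressed sheddase that has been linked to HB-EGF release. Control wells had 197, 192, 188 and 179 CPM and stretch wells 199, 191, 187 and 193 CPM. In replicates 1, 2 and 3 the paired wells differed by less than 2 CPM, and only replicate 4 was further apart, at 1.08-fold. The log2 change was 0.028 ± 0.045 (SE; 95% interval 0.953-fold to 1.09-fold).

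ADAM15, on chromosome 7 (42418961 to 42429316, minus strand), encodes a protease with an integrin-binding motif in its human form, present at epithelial junctions. It had 46.0, 48.8, 47.7 and 50.9 CPM in control wells and 44.8, 49.9, 50.3 and 48.7 CPM in stretch wells. The log2 change was 0.0010 ± 0.059 (SE; 95% interval 0.916-fold to 1.09-fold). RefSeq lists 20 transcripts for ADAM15 in the dog assembly UU_Cfam_GSD_1.0, and counts per gene do not separate them. The direction of a change this close to 0 depended on the setting for ADAM10, ADAM15 and ADAM17, and none of the 4 sheddases passed under any setting tried.

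Each of the 4 sheddases had 2 of 4 pairs higher after stretch. Their median log2 change was 0.0029, beside a median of -0.0032 over all 14571 tested genes.

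**Figure D1:**
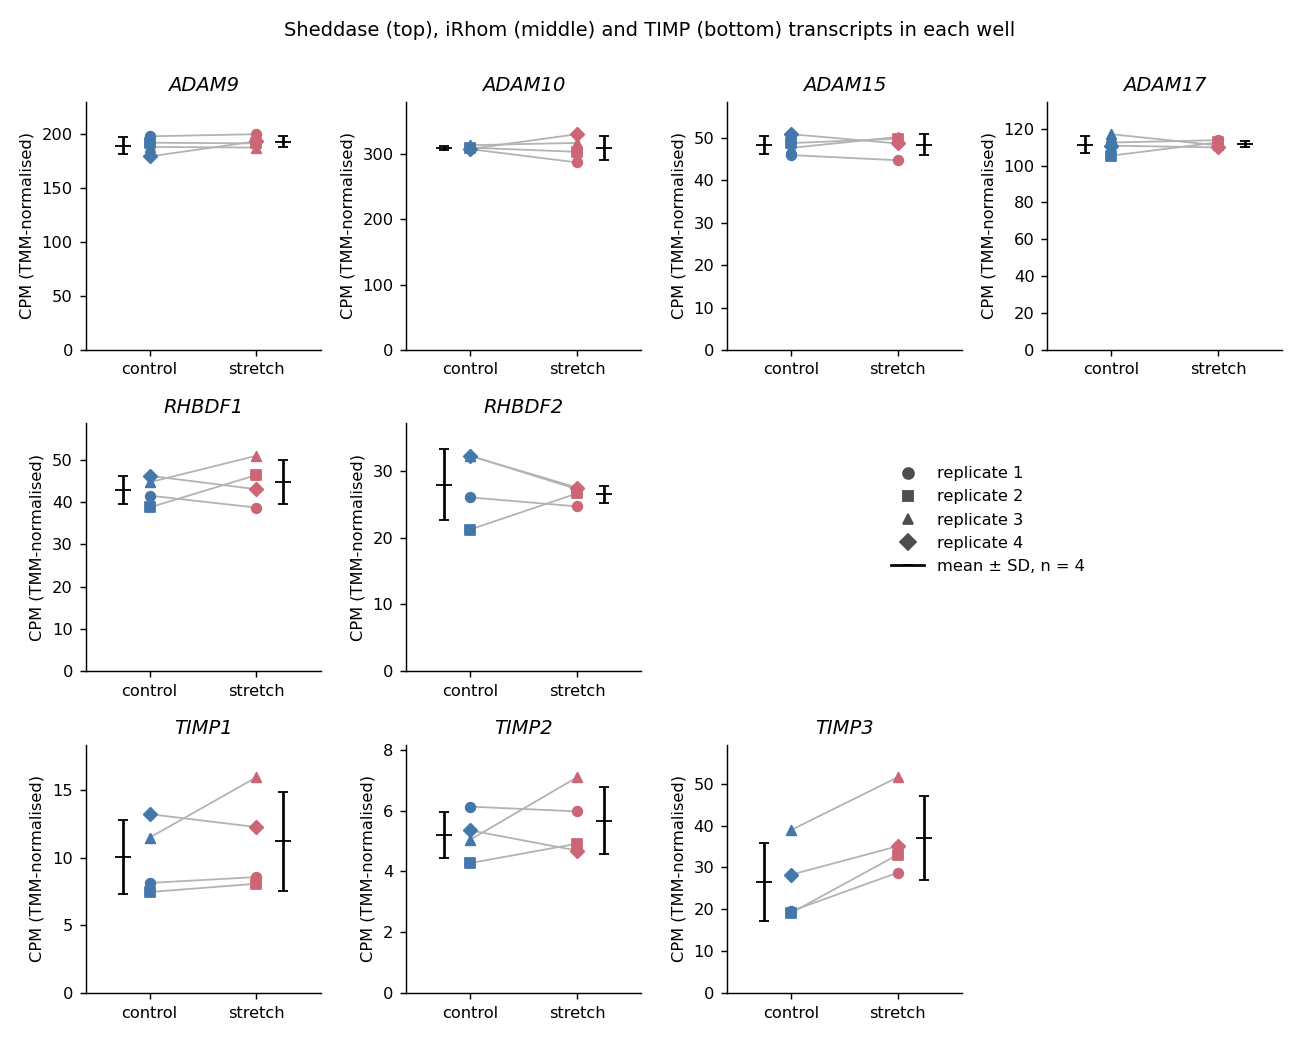
Transcript level in each well, in TMM-normalised CPM on axes that start at 0, with control wells in blue, stretch wells in red, grey lines joining wells of the same replicate number, and black bars for the mean ± SD of 4 wells. The ADAM panels are flat, while all 4 TIMP3 lines rise, from 19.1 to 38.9 CPM in control wells to 28.7 to 51.5 CPM in stretch wells.

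The iRhom transcripts did not pass the test, and their pairs pointed in different directions. RHBDF1, which encodes iRhom1 and lies on chromosome 6 (40860455 to 40884315, plus strand), had 41.5, 38.7, 44.7 and 46.2 CPM in control wells and 38.7, 46.4, 51.0 and 43.0 CPM in stretch wells. It was higher after stretch in replicates 2 and 3 and lower in replicates 1 and 4. The log2 change was 0.065 ± 0.086 (SE; 95% interval 0.920-fold to 1.19-fold). Exons of RHBDF1 share 143 bases with exons of its neighbours NPRL3 and MPG, of which MPG is on the opposite strand, and how reads in those bases were assigned is not given in the sources used here.

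RHBDF2, which encodes iRhom2 and lies on chromosome 9 (5128477 to 5139898, plus strand), had 26.0, 21.2, 32.2 and 32.2 CPM in control wells and 24.7, 26.6, 27.2 and 27.5 CPM in stretch wells. The stretch wells lay inside the range of the control wells. The coefficient of variation was 19.1% in control wells and 4.81% in stretch wells, and whether the spreads differ was not tested. The log2 change was -0.075 ± 0.12 (SE; 95% interval 0.793-fold to 1.14-fold), with stretch lower in 3 of 4 pairs. Without control replicate 3 it was 0.0013, and without control replicate 4 it was 0.0025, so the small negative value rested on those wells.

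The 3 TIMP transcripts varied more between wells than the sheddases did, and 1 of the 3 rose when wells were compared within replicate numbers. TIMP3, on chromosome 10 (31684823 to 31738972, minus strand), had 19.5, 19.1, 38.9 and 28.2 CPM in control replicates 1 to 4. The stretch replicates 1 to 4 had 28.7, 33.0, 51.5 and 35.1 CPM. Replicate 3 was the highest well of both groups, and the ranges overlapped because control replicate 3 lay above 3 of the stretch wells. The raw counts were 532 to 1503 per well, where counting error is 3.26%.

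Within each number, however, the stretch well was always the higher one. The rise was 1.47-fold in replicate 1, 1.73-fold in replicate 2, 1.33-fold in replicate 3 and 1.24-fold in replicate 4. Among all tested genes, 8.45% were higher after stretch in 4 of 4 pairs. TIMP3 averaged 26.4 ± 9.31 CPM in control and 37.1 ± 9.99 CPM in stretch wells (SD, n = 4 each), a difference of about the size of the SD in either group.

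Without the block, the log2 change of TIMP3 was 0.49 ± 0.28 (SE; 95% interval 0.898-fold to 2.19-fold; edgeR, unadjusted p = 0.118). With the block, it was 0.51 ± 0.071 (SE). The call held in edgeR with each pair left out in turn, with adjusted p from 1.8e-04 to 0.0406 and the weakest value without replicate 1. A coarser block, which only separates replicates 1 and 2 from replicates 3 and 4, gave 0.51 ± 0.17 (SE) and ended the call (edgeR, adjusted p = 0.504), where 0.398% of all genes were called.

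TIMP3 lies within the span of SYN3, a gene on the opposite strand, and shares no exon bases with it. Fibroblasts make TIMP3 in tissues, and of the 8 fibroblast markers 4 had 0 counts in all wells while PDGFRA had counts in every well. The part of such cells in the TIMP3 result was not tested.

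TIMP1, on chromosome X (41404449 to 41408018, plus strand), encodes a broad inhibitor of matrix metalloproteinases that also inhibits ADAM10. It had 8.15, 7.48, 11.5 and 13.2 CPM in control wells and 8.58, 8.09, 16.0 and 12.3 CPM in stretch wells. Replicates 1 and 2 of both groups lay below replicates 3 and 4 of both groups, and the mean of the latter was 1.64 times that of the former. TIMP3 had the same division on average (1.53 times), though not in every well. The log2 change of TIMP1 was 0.15 ± 0.25 (SE; 95% interval 0.752-fold to 1.65-fold) without the block and 0.14 ± 0.10 (SE) with it (adjusted p in edgeR 0.80). It was -0.062 without stretch replicate 3, the highest of the 8 wells. TIMP1 lies within the span of SYN1 on the opposite strand, with no shared exon bases.

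TIMP2, on chromosome 9 (3369678 to 3414817, plus strand), encodes an inhibitor that also takes part in the activation of MMP2 by MMP14 at the cell surface. It had 6.13, 4.27, 5.04 and 5.35 CPM in control wells and 5.97, 4.91, 7.10 and 4.69 CPM in stretch wells. With 132 to 207 counts per well, counting error was 7.89%, the largest of the 9 members. The log2 change was 0.13 ± 0.16 (SE; 95% interval 0.856-fold to 1.39-fold), with 2 of 4 pairs higher, so a change of the size measured for TIMP3 with the block (1.42-fold) lay just outside the interval. When a well was left out, with no block, the log2 change of TIMP2 was 2.4e-04 to 0.22, lowest without stretch replicate 3. TIMP4, the remaining family member, had only 10 to 43 counts per well and a log2 change of -0.047 ± 0.41 (SE).

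**Figure D2:**
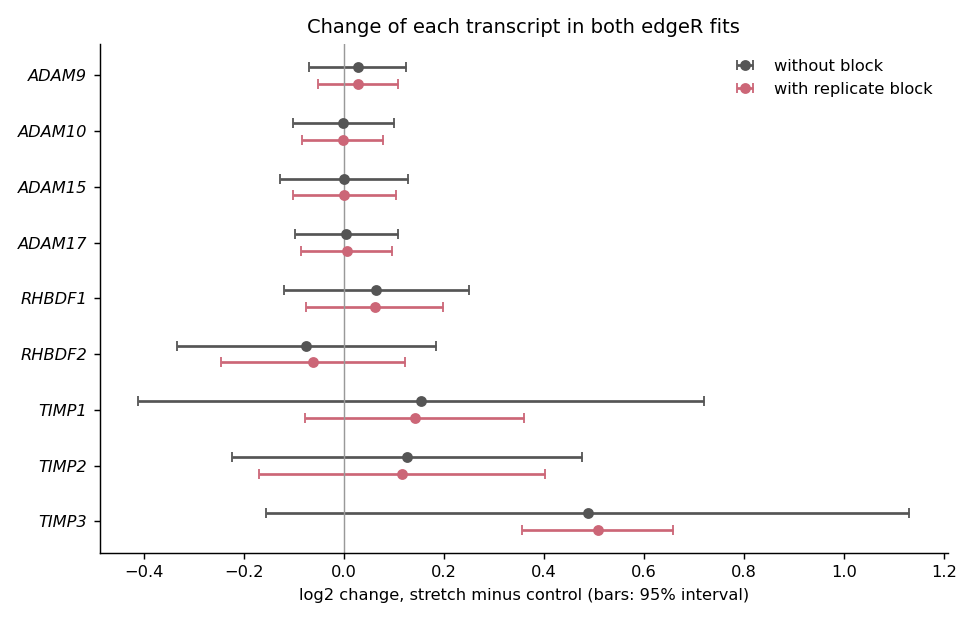
Log2 change of each member, stretch minus control, from edgeR without a block (grey) and with the replicate number as a block (red), with 95% intervals as bars. The intervals of the 4 ADAMs stay within 0.13 of 0 on the log2 scale in both fits, and that of TIMP3 lies above 0 only with the block, from 0.36 to 0.66.

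Levels of different transcripts were compared per kilobase of gene model (CPM per kilobase). ADAM9 was the most abundant member, at 71.1 to 79.3 CPM per kilobase over the 8 wells, followed by ADAM10 at 61.5 to 70.8. These ranges did not overlap, and both genes were above 90.3% or more of the tested genes on this scale. TIMP3 (22.6 to 60.9) and ADAM17 (32.0 to 35.6) came next and could not be ordered, since TIMP3 was the higher of the pair in 4 of 8 wells. ADAM15 (13.3 to 15.1) and TIMP1 (9.70 to 20.7) were likewise not distinguishable in order, while TIMP1 was above RHBDF2 in 8 of 8 wells although their ranges overlapped. RHBDF2 (8.02 to 12.2), TIMP2 (6.41 to 10.7) and RHBDF1 (6.81 to 8.97) were the lowest, each overlapping the next in order, and lay near the middle of the tested genes.

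These lengths depend on the annotation. The gene models of TIMP1, TIMP2 and TIMP3 are 771, 666 and 846 bases long and come from 1 RefSeq transcript each, while those of ADAM9, ADAM10, ADAM15 and ADAM17 are 2515 to 4665 bases long. Reads from untranslated sequence outside a model are not counted, so the levels of TIMPs against ADAMs hold for these models only.

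ADAM10 was 1.96 ± 0.0793 times as abundant per kilobase as ADAM17 in control wells and 1.95 ± 0.147 times in stretch wells (SD, n = 4 each). The ratio of RHBDF1 to RHBDF2 was 0.726 ± 0.0924 in control wells and 0.785 ± 0.0687 in stretch wells. The summed level of the 3 TIMPs was 0.275 ± 0.0733 of that of the 4 ADAMs in control wells and 0.350 ± 0.0909 in stretch wells, higher after stretch in 4 of 4 pairs. By replicate number the control wells had ratios of 0.223, 0.205, 0.358 and 0.315, and the stretch wells 0.287, 0.2996, 0.483 and 0.330. TIMP3 made up 53.9% to 67.1% of the TIMP sum in control and 62.8% to 68.6% in stretch wells.

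**Figure D3:**
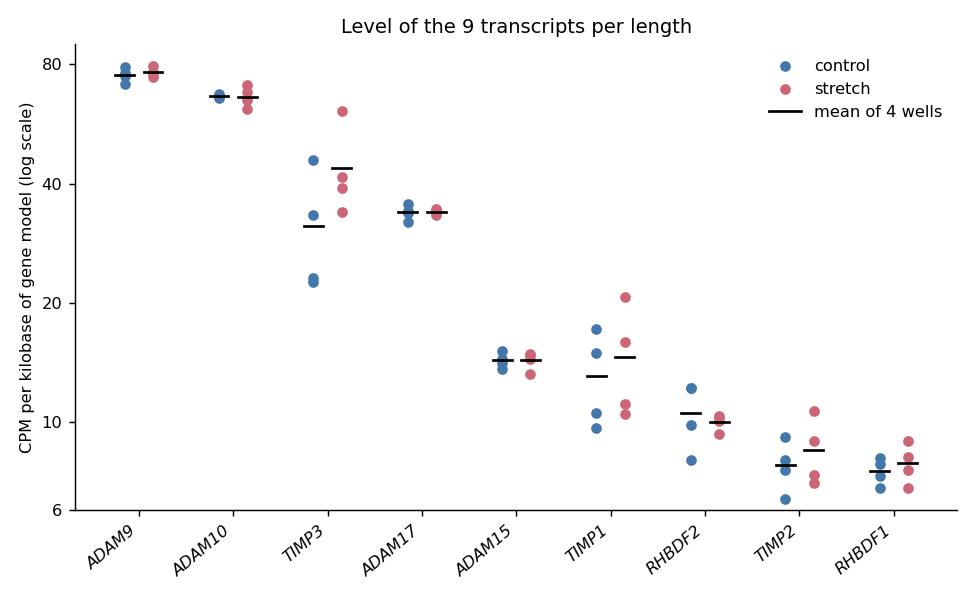
Level of the 9 transcripts per kilobase of gene model on a log axis, ordered by their mean over 8 wells, with control wells in blue, stretch wells in red and bars at the mean of 4 wells. ADAM9 and ADAM10 stand above the others at 61.5 to 79.3 CPM per kilobase, and the TIMP points are spread more widely than the ADAM points.

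Across the 8 wells, the transcripts that followed ADAM17 most closely by log2 CPM were LASP1 (Pearson r = 0.979), METAP1 (r = 0.977) and LOC111092069 (r = 0.963). For ADAM10 they included RSL24D1 (r = 0.962) and ROCK1 (r = 0.955). These values describe the 8 shared libraries, are among the highest of 14571 genes and follow differences of a few percent between wells. Among the members, TIMP3 varied most like TIMP1 (r = 0.774) and RHBDF1 (r = 0.767), and ADAM9 ran opposite to ADAM15 (r = -0.835).

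The genes that act with, on or beside the sheddases were read from 6 lists holding 88 genes, of which 67 were tested. Of the 21 that were not tested, 13 had 0 counts in all 8 wells and none had more than 13 counts in any well. Without the block, 0 of the 67 passed (edgeR; 5 had an unadjusted p under 0.05, beside 3.97% of all tested genes, and DESeq2 called 3). With the replicate block 3 passed, all higher: HBEGF, SDC4 and PLK2. Of all tested genes, 0.7% passed with this block, and 0.528% passed and were higher. In 4 of the 67 the stretch wells did not overlap the control wells, against 2.55% of all tested genes. The lists were drawn up with earlier results on some of these genes known, so the counts are descriptions.

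Of 19 other metalloproteinase and aspartyl sheddases, 9 were tested and 0 passed in either fit. The aspartyl protease gene BACE2 had the highest level of the list, at 96.6 CPM per kilobase in control and 95.6 in stretch wells, above ADAM9 on the same scale. The membrane-type matrix metalloproteinase gene MMP15 followed, with 55.1 CPM in control and 51.9 CPM in stretch wells (log2 change -0.087 ± 0.057). BACE1 had the smallest unadjusted p of the list (log2 change 0.14 ± 0.076, higher in 4 of 4 pairs; edgeR, unadjusted p = 0.0937), and 963 of its exon bases overlap RNF214 on the opposite strand.

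Of 17 genes for maturation, trafficking and partners of the ADAMs, 15 were tested and 0 passed in either fit. Among the 15, 4 were higher and 11 lower, beside 48.2% of all tested genes higher, with a median log2 change of -0.061. TSPAN17, a tetraspanin of the group that escorts ADAM10, was at 78.6 CPM per kilobase in control and 79.8 in stretch wells. TSPAN15, another of them, had a log2 change of -0.19 ± 0.15 (SE). MAD2L1, a spindle checkpoint gene whose product also binds ADAM17, had a log2 change of -0.12 ± 0.075 (SE) without passing (edgeR, unadjusted p = 0.138). It was 1 of 5 genes in this list that were lower in 4 of 4 pairs. Without stretch replicate 3 its log2 change was -0.040. FURIN, the convertase that removes ADAM prodomains, and FRMD8, which stabilises iRhoms, had log2 changes of -0.083 and -0.072 and are named here for their roles, outside the naming rule. Of 5 other inhibitors, 4 were tested and 0 passed. The membrane-bound serine protease inhibitor genes SPINT2 (463 and 458 CPM in control and stretch wells) and SPINT1 (145 and 144.5 CPM) were abundant, and RECK, which encodes an anchored inhibitor of ADAM10 and of matrix metalloproteinases, was near 1 CPM (1.22 and 1.27).

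Of the 7 EGF receptor ligands that ADAMs release, HBEGF, EREG, TGFA and EGF were tested. All 4 had positive log2 changes, beside 48.2% of all tested genes, with a median of 0.39. HBEGF had 15.9 to 23.0 CPM in control and 29.3 to 42.5 CPM in stretch wells, with no overlap, and rose by 0.80 ± 0.066 on the log2 scale with the block (edgeR, adjusted p = 1.8e-05). The coarser block gave 0.80 ± 0.13 (SE) and ended the call (edgeR, adjusted p = 0.0668). EREG, the epiregulin gene, was higher in 4 of 4 pairs but had overlapping groups and did not pass (log2 change 0.75 ± 0.16 with the block; edgeR, adjusted p = 0.249). EGF had 183 CPM in control and 187 CPM in stretch wells and did not pass.

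Of 31 other shed substrates, 26 were tested and 1 passed with the block, beside 0.7% of all tested genes. The median log2 change over the list was 0.0046. SDC4, which encodes syndecan-4, a heparan sulfate proteoglycan that is itself shed, had 100.3, 92.4, 111 and 102 CPM in control wells and 118, 123, 133 and 123 CPM in stretch wells. All stretch wells lay above all control wells, and the log2 change was 0.29 ± 0.043 with the block (adjusted p in edgeR 0.00230 with the replicate block, 0.00365 with the coarser block and 0.371 without a block). EFNA1, an ephrin gene, had the opposite pattern, with 23.6 to 26.1 CPM in control and 20.2 to 22.7 CPM in stretch wells, but did not pass (log2 change -0.22 ± 0.072; edgeR, adjusted p = 0.999 without the block and 0.168 with it). The junctional substrate genes EPCAM (527 and 529 CPM) and F11R (603 and 610.5 CPM) did not pass.

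Of 9 kinases and mediators that act on ADAM17 or ADAM10, all were tested and 1 passed with the block, beside 0.7% of all tested genes. PLK2, a kinase gene whose product phosphorylates ADAM17, had 18.7, 23.0, 28.9 and 23.0 CPM in control wells and 33.2, 36.3, 33.1 and 34.6 CPM in stretch wells. The groups did not overlap, and the log2 change was 0.56 ± 0.086 with the block (adjusted p in edgeR 0.00826 with the replicate block, 0.0181 with the coarser block and 0.270 without a block). It also passed without control replicate 3 and no block (edgeR, adjusted p = 0.0143), and it did not pass with the block when replicate 1, 2 or 4 was left out. MAPK14, the gene of the p38 alpha kinase, had a log2 change of -0.091 ± 0.075 (SE). P4HB, among the most abundant of the list, had 1255 CPM in control and 1249.8 CPM in stretch wells.

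**Figure D4:**
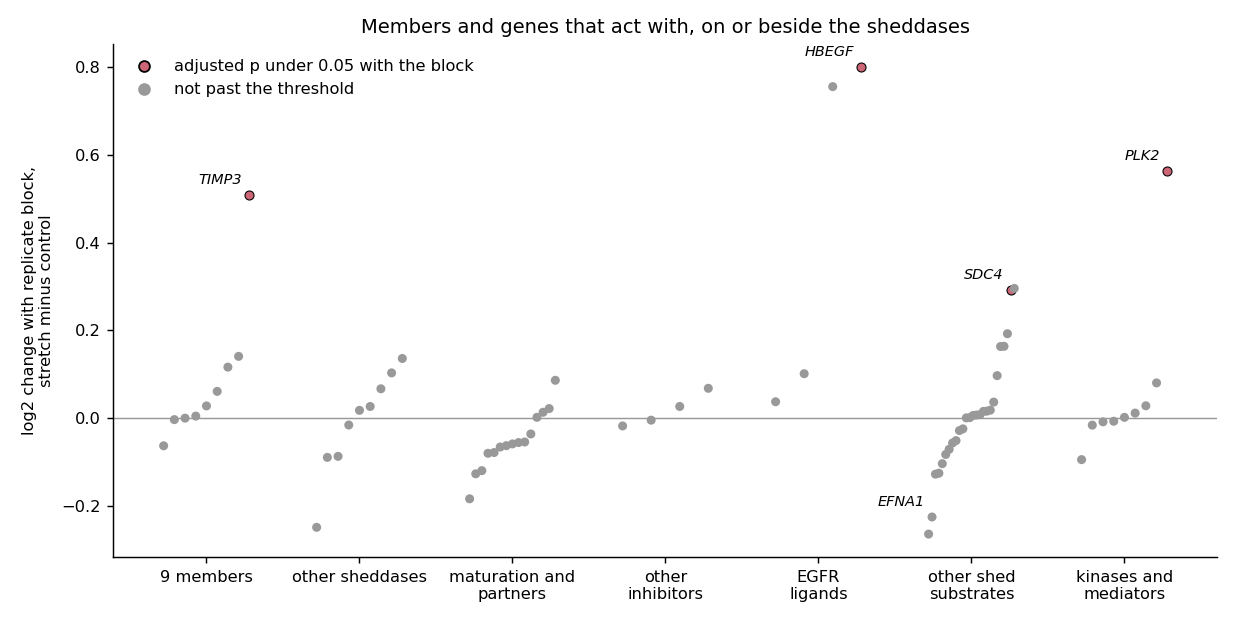
Log2 change, stretch minus control, of the 9 members and of the tested genes of the 6 lists, from edgeR with the replicate number as a block, where each point is 1 gene and red points have an adjusted p under 0.05. Named points are those past the threshold and EFNA1, whose groups do not overlap. TIMP3 is the 1 red point among the members.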

How the data were processed

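The authors deposited a table of raw exon counts, 1 row per gene and 1 column per well, with an exon length per gene model that was used for levels per kilobase. Per the submitters' processing notes, FastQC 0.11.8, Trim Galore 0.6.5, STAR 2.7.3a, Subread and featureCounts were used. The genome build, the strandedness used in counting and the treatment of shared reads are not given in the sources used here. Coordinates are those of the table, and 37291 of its symbols matched RefSeq genes of UU_Cfam_GSD_1.0, all with identical start and end. No sequences are printed.

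Counts were tested in R 4.3.3 with edgeR 4.0.16 (TMM factors, filterByExpr with a minimum count of 10 and a minimum total of 15, robust glmQLFit, glmQLFTest), two-sided, with Benjamini-Hochberg adjustment over 14571 genes and a threshold of 0.05. Intervals of log2 changes used the SE from the fit and the moderated degrees of freedom. SDs and SEs are over 4 wells per group. Log2 CPM used a prior count of 2. The code was tested on simulated data. Wells of 1 group differed by a chi-square of 5.56 to 26.8 per degree of freedom, so none was a repeat of another. Replicate numbers come from the titles. Deviations from the group means correlated between same-numbered wells by 0.108 to 0.328 (mean 0.199) in all 4 pairs. The replicate block takes this as pairing, although exchanging 1 with 2 and 3 with 4 gave a mean of 0.180. Control replicates 2, 3 and 4 correlated more with stretch replicates 1, 4 and 3, by 0.243, 0.216 and 0.189. With their own number they correlated by 0.108, 0.182 and 0.178, and only control replicate 1 correlated most with its own number. The correlations separate replicates 1 and 2 from 3 and 4 and do not settle the pairing within them. DESeq2 1.42.0, limma-voom (limma 3.58.1), other size factors, other filters and omission of each well were the alternatives. Chosen after seeing the data were the coarser block, the omission of a pair at a time, and the remaining settings combined with the replicate block. Figures used matplotlib 3.10.9.

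The members and lists were chosen with earlier results of these data known. All members were named, and of each list the genes past the threshold in either fit, those without overlap between groups, the 2 with the smallest p and the 2 with the highest level per kilobase. Some genes that this rule or the likeness to a member selects are not reported here.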

Additional observations from a re-analysis of the deposited data

Results flagged for a closer look

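In 1 of 62 groups of 4 wells examined (the members, their ratios and the named genes of the lists), 1 well was separated from its nearest neighbour by more than Dixon's limit allows for the group's range. For HBEGF, control replicate 1 had 15.9 CPM and the other control wells 21.9 to 23.0 CPM. Chance alone would flag about 3.1 of 62 groups, and none of the 9 members was flagged.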

How the results depend on the processing

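The wells are of 1 line, and counting error among the members was smallest for ADAM10 (1.04%) and largest for TIMP2 (7.89%). Over all genes and without a block, limma-voom called 0, and edgeR called 0 with other size factors or a minimum of 10 counts in every well. In edgeR, 11 were called without a filter and 0 to 12 without a well (most without control replicate 3). DESeq2 called 40. The replicate block gave 102 calls, 145 with DESeq2, 105 with its size factors, 112 with upper-quartile factors, 111 by library size, 448 without a filter, 97 with 10 counts in every well, 100 with limma-voom, and 43, 67, 186 and 74 without replicate 1, 2, 3 or 4. The coarser block gave 58. The cause was not tested.

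With the replicate block, TIMP3 passed in all 12 fits, and it passed in 0 of the other 16 settings. The 12 fits share the same wells and the same pairing by number, so they cannot test that pairing. Apart from the block itself and the block with DESeq2, they were chosen after seeing the data. The log2 change of TIMP3 with the block was 0.51, 0.49 with limma-voom, and 0.49, 0.42, 0.54 and 0.58 without replicate 1, 2, 3 or 4. Without the block it was 0.29 to 0.73 when a well was left out. The pairing changed no call of the other 8 members. Of the list genes, 1 ligand (HBEGF), 1 other substrate (SDC4) and 1 kinase (PLK2) passed with the block and with DESeq2, PLK2 also without a filter and without control replicate 3, and 2 ligands (with EREG) passed with the block under DESeq2. With the coarser block HBEGF did not pass. EREG, ADAMTS1 (lower) and JAG1 also passed with the block without a filter and without replicate 3, and CXCL16 with the block without a filter.

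Signs near 0 turned, with no call in any case. ADAM10 had a log2 change of 0.0039 with upper-quartile factors, 0.0030 by library size, 0.0014 without a filter and 0.0031 with 10 counts in every well. With the block it had 0.0021 with upper-quartile factors, 0.0015 by library size, 0.0013 with 10 counts in every well, 0.029 without replicate 1 and 0.0100 without replicate 2. Without a well it lay between -0.030 and 0.036. ADAM15 had -9.4e-04 with limma-voom, -0.0057 and -0.025 with the block without replicate 2 or 3, and -0.0196 to 0.040 without a well. With the block and without replicate 2, ADAM17 had -0.021 and RHBDF1 -4.3e-04, and without replicate 3 TIMP2 had -0.016. Without a well and with no block, the values were -0.018 to 0.030 for ADAM17, -0.0017 to 0.13 for RHBDF1, -0.18 to 0.0025 for RHBDF2 and -0.062 to 0.32 for TIMP1. In the lists they were -0.038 to 0.0064 for BACE2, -0.088 to 0.18 for RECK, -0.043 to 0.025 for SPINT1, -0.046 to 0.010 for SPINT2, -0.038 to 0.085 for EGF, -0.035 to 0.060 for EPCAM, -0.0033 to 0.053 for F11R and -0.025 to 0.021 for P4HB. SPINT1 had 0.0023 with upper-quartile factors, 0.0017 by library size and 0.0011 with 10 counts in every well.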
